A study of Homo sapiens with 4 samples.

Results

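HT29 is an established cell line from a human colon cancer that carries a missense mutant p53. The RNA of its small extracellular vesicles was profiled by small RNA sequencing, and 387 long non-coding RNA (lncRNA) features that each span 1 genomic interval and gathered a middling number of reads are described here. The members were selected on their counts: type lncRNA in the deposited annotation, 1 interval, and raw counts that sum to at least 100 and under 1000 over the 4 libraries, with 6 features removed by name, of which 4 otherwise met these criteria. They are 387 of 26318 lncRNA features with 1 interval and of 155642 features in all. The control group was 2 libraries of vesicle RNA from HT29 cells with a non-targeting shRNA, and the other group was 2 libraries from HT29 cells with an shRNA against p53. All cells were at passages 5 to 15, and the inserts were size-selected to between 18 and 40 nt, so each read is a short piece of RNA and not a whole lncRNA. The comparison asks whether lowering the mutant p53 of the donor cells changed the vesicle RNA. Separate cultures are not stated for the 2 libraries of a group, and p-values therefore measure the spread between these samples alone, which may be technical.

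Vesicles carry fragments of abundant housekeeping RNAs as well as messenger and regulatory RNA. 7SL RNA is the scaffold of the signal recognition particle, which takes ribosomes making secreted proteins to the endoplasmic reticulum, and it is known as a component of vesicle RNA. 7SK RNA holds the transcription elongation factor P-TEFb in an inactive complex. The human genome is full of inexact copies of both, annotated as pseudogenes, and Alu repeats descend from 7SL RNA. A small RNA read that fits several of these places cannot be given to one of them by sequence alone.

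The label "lncRNA" covered several kinds of place in the genome. By overlap with GENCODE 29 genes, 107 of the 387 members (27.6%) were copies of 7SL RNA and 6 were copies of 7SK RNA. A further 101 members touched exons of other genes on the same strand, 34 touched exons on the opposite strand, 34 lay in introns, 59 lay between genes, 45 were on pseudogenes of other kinds and 1 was on the mitochondrial pseudogene MTCO3P16. The 7SL copies stood out by their number: among the 12986 lncRNA features with 1 interval and a lower total they made up 2.63%, while exons on the same strand had nearly the same share in both sets (26.1% and 27.3%). Both shares describe sets formed by the totals, and no test was made. The median member was 1194 bases long (218 to 205012), with a median total of 203 counts. The 7SL copies were all near the length of 7SL RNA itself, at 236 to 316 bases.

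The 7SL copies that reached the range shared a short stretch of sequence. Every 18-base window of RN7SL1, a functional 7SL gene, was looked for in each copy with a count, 18 being the shortest insert kept. The window at bases 74 to 91 was held exactly by 65 of the 107 members (60.7%) and by 1 of the 342 copies with a lower total (0.292%). It was chosen after the totals were known, so this is a description and carries no test. The stretch is shown in RN7SL1 and in members, read from GENCODE 29 transcripts (GRCh38, 5′ to 3′ on the strand of the copy), with the shared 18 bases in capitals. RN7SL838P, RN7SL674P and RN7SL40P are abundant members that hold it, RN7SL665P is as abundant and does not, and RN7SL284P and RN7SL184P are members with a total of 200 each.
RN7SL1: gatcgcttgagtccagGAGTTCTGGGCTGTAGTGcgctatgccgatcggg
RN7SL838P: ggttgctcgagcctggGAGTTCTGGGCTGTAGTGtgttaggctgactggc
RN7SL674P: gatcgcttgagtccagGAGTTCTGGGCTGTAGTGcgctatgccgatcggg
RN7SL40P: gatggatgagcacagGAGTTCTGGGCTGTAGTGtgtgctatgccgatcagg
RN7SL284P: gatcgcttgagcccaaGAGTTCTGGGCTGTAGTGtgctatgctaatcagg
RN7SL184P: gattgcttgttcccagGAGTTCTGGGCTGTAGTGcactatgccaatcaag
RN7SL665P: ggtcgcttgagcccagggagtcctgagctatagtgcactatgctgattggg

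These stretches lie at chr14:49586637-49586686 (RN7SL1, plus strand), chr11:440587-440636 (RN7SL838P, minus), chr2:11584830-11584879 (RN7SL674P, plus), chr2:202357309-202357359 (RN7SL40P, minus), chr10:77912440-77912489 (RN7SL284P, minus), chr4:113419897-113419946 (RN7SL184P, plus) and chr9:130400323-130400373 (RN7SL665P, plus). RN7SL838P shares the 18 bases with RN7SL1 although its flanks differ at many positions, among them T69C and C71T, counted from the first base of RN7SL1. RN7SL665P differs from RN7SL1 inside the window at T78C, G82A and G86A. Across whole copies the resemblance to RN7SL1 was about the same in the members (median identity 81.9%, 66.9% to 89.6%) and in the copies with a lower total (median 80.3%).

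**Figure D1:**
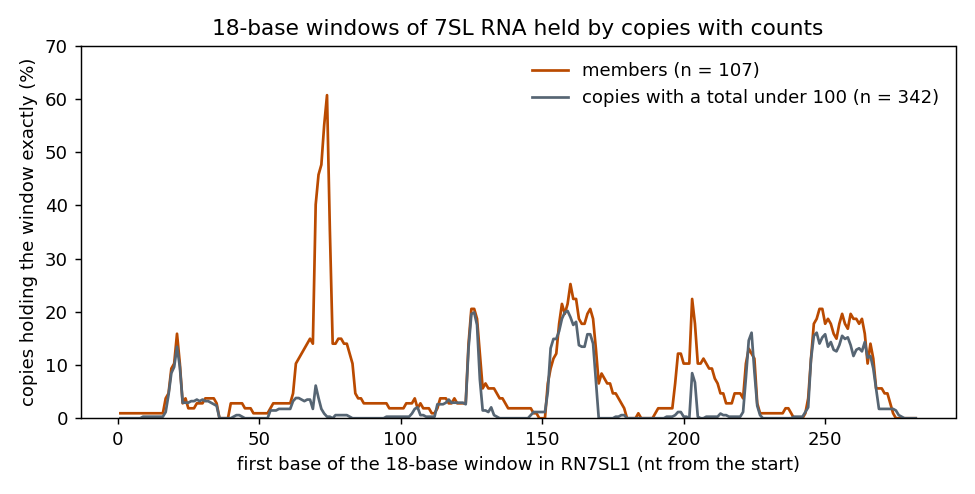
Share of 7SL copies (vertical axis, %) that hold each 18-base window of RN7SL1 exactly, by the first base of the window (horizontal axis, nt from the start of RN7SL1), for the 107 members and for the 342 copies with a total under 100. The lines run close together over much of the RNA, and the members reach 60.7% in the window that starts at base 74, where the other copies are at 0.292%.

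The same 18 bases divided all 454 7SL copies with a count, but they were chosen on these totals, so the split largely restates that choice. Of the 70 copies that held them, 65 were members, 4 had a higher total and 1 had a lower total, and the median total was 220. Of the 384 copies without them, 42 were members, 1 had a higher total and 341 had a lower total, and the median total was 6. Allowing 1 difference in the aligned stretch took in 88 of the 107 members, but also 90 of the 342 copies with a lower total. Longer windows were held by fewer members, the best 25-base window (bases 67 to 91) by 13 members and by 0 copies of lower total, and the best 30-base window (bases 63 to 92) by 9 and 0.

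Copies that matched RN7SL1 over more bases around the run had higher median totals, but the ranges of totals overlapped. The highest total was 951 at 18 or 19 bases, above the highest at 20 to 24 bases (658) and at 25 to 29 bases (336). Where the exact match around the run was 18 or 19 bases long, the median total was 195 (13 copies), between 20 and 24 bases it was 217 (34 copies), between 25 and 29 bases it was 316.5 (4 copies), and from 30 bases up it was 360 (19 copies). RN7SL674P, on chromosome 2, matched RN7SL1 over 83 bases in a row. The 3 functional genes RN7SL1, RN7SL2 and RN7SL3 all hold the run. Among lncRNA features on 7SL genes with a count of 0 in all libraries, 119 had bases outside every other feature and 2 of them held the run, while 40 had no such bases and 15 of them held it. A feature without bases of its own could not receive a count: 0 of 66527 such features in the table had one.

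**Figure D2:**
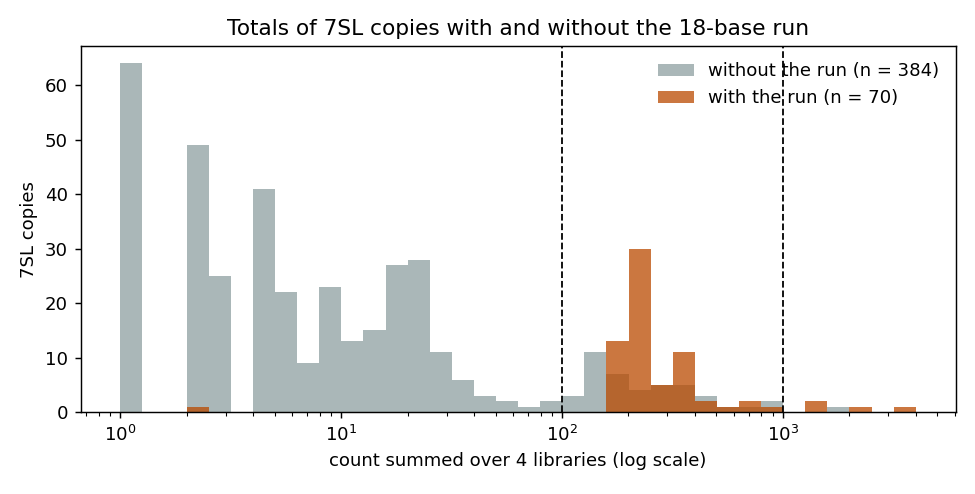
Number of 7SL copies (vertical axis) by their count summed over the 4 libraries (horizontal axis, log scale), for 70 copies with the 18-base run and 384 without it. Dashed lines mark totals of 100 and 1000, the bounds used to select the members, and most copies with the run fall between them.

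The 42 members without the run were less alike. Their best separate window, bases 207 to 224 of RN7SL1, was held by 11 of the 42 and by 0 of 341 copies of lower total, again chosen after the totals were known. RN7SL230P, the member with the highest total, is one of them, with counts of 101 and 84 in the control libraries and 424 and 370 in the p53 shRNA libraries (chr1:179900262-179900562, plus strand). No member outside the 7SL and 7SK copies held the run on either strand among the 96 whose whole sequence could be read from GENCODE exons, and none of 5586 features of lower total did.

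Counts of the run-holding members moved together across libraries. Their median counts were 27 in control 1, 33 in control 2, 45 in p53 shRNA 1 and 125 in p53 shRNA 2. In 64 of these 65 members the count was higher in p53 shRNA 2 than in p53 shRNA 1, with a median ratio of 2.75 (2.06 to 3.77 in the middle 80%), although p53 shRNA 2 was the smaller library (1940942 counts against 2611032). The members without the run were more scattered, with a median ratio of 3.72 (0.875 to 13.3). These copies share sequence and are not independent of each other: each of the 87 7SL members with a whole sequence shared a run of 25 bases with another member.

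Between the groups, the log2 changes of the 7SL copies lay on both sides of 0. RN7SL838P had counts of 72 and 153 in the control libraries and 137 and 589 in the p53 shRNA libraries. RN7SL674P had 101 and 141, then 102 and 332, and RN7SL40P had 77 and 125, then 64 and 392. RN7SL665P had 112 and 51, then 456 and 204. The highest raw count of the first 3 copies was in p53 shRNA 2 and that of RN7SL665P in p53 shRNA 1, both deeper libraries than the controls. After scaling with TMM factors, and not by library totals alone, RN7SL674P was at 149 and 139.7 CPM in the control. It was at 36.4 and 142 CPM after p53 shRNA. On that scale the groups overlapped in each of the 4 copies. The median log2 change of the 107 copies, p53 shRNA over control, was -0.01, and the quartiles were -0.27 and 0.29. That value depended on both p53 shRNA libraries: without p53 shRNA 2 the median was -1.03, and without p53 shRNA 1 it was 0.70.

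The 7SK members were 6 copies, and all of them held bases 138 to 155 of RN7SK exactly, the window that best divided them from the 195 copies of lower total, of which 6 held it. It is shown in the 3 members with the highest totals, with those 18 bases in capitals, because these copies were counted almost alike.
RN7SK: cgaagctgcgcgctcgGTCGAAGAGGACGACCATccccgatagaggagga
RN7SKP255: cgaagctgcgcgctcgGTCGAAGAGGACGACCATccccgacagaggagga
RN7SKP203: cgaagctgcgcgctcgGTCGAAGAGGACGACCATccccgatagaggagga
RN7SKP71: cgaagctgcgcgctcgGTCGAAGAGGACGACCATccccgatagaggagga

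The positions are chr6:52995742-52995791 for RN7SK (plus strand), chr14:89712633-89712682 for RN7SKP255 (plus), chr2:76445239-76445288 for RN7SKP203 (minus) and chr12:112267199-112267248 for RN7SKP71 (plus). Over these 50 bases RN7SKP203 and RN7SKP71 had no substitution relative to RN7SK and RN7SKP255 had T162C. The counts of RN7SKP255 were 99, 147, 113 and 299 (control 1, control 2, p53 shRNA 1, p53 shRNA 2). Those of RN7SKP203 were 101, 140, 110 and 281, and those of RN7SKP71 were 94, 141, 96 and 285. The other 3 members, RN7SKP80, RN7SKP79 and RN7SKP185, had totals of 208, 154 and 125. The median log2 change of the 6 copies was -0.81 (-1.13 to 0.32). None had an unadjusted p under 0.05, and the smallest adjusted p of the 6 was 0.75 in edgeR.

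All members together held 9433 of 1099694 counts in control 1, 14416 of 938754 in control 2, 36879 of 2611032 in p53 shRNA 1 and 41331 of 1940942 in p53 shRNA 2. These are 0.858% (95% Wilson interval 0.841% to 0.875%), 1.54% (1.51% to 1.56%), 1.41% (1.40% to 1.43%) and 2.13% (2.11% to 2.15%) of each library, with intervals that cover counting error only. The group means were 1.20% ± 0.48 (SD, n = 2) in the control and 1.77% ± 0.51 (SD, n = 2) after p53 shRNA, and the ranges overlapped. With 2 libraries against 2 an exact permutation test cannot give a p below 0.333. The 7SL copies held 0.296%, 0.485%, 0.236% and 0.807% of the 4 libraries in the same order, and members in exons on the same strand held 0.191%, 0.375%, 0.365% and 0.452%. As shares of a library, both kinds were highest in p53 shRNA 2, and the 7SL kind was lowest in p53 shRNA 1. In such bulk samples, fewer cells releasing an RNA and less of it released per cell cannot be told apart.

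**Figure D3:**
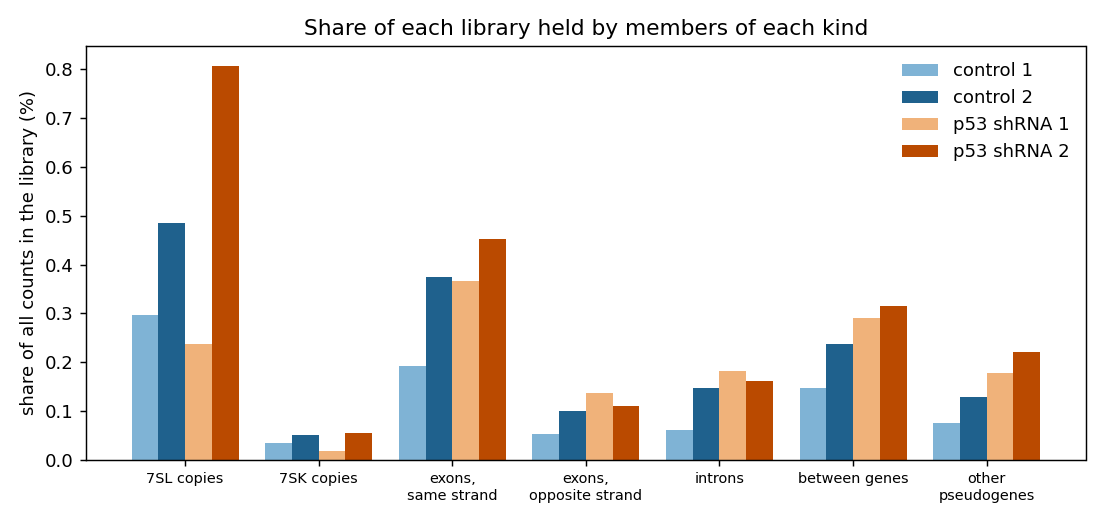
Share of all counts in a library (vertical axis, %) held by the members of each kind (horizontal axis), with 1 bar for each of the 4 libraries. The 7SL copies hold 0.236% of p53 shRNA 1 and 0.807% of p53 shRNA 2, and each of the other kinds differs between these libraries by fewer percentage points.

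Libraries of the same group differed widely in single members. In CPM, the usual scaling of counts by the library total, 115 of the 387 members (29.7%) differed more than 4-fold between the control libraries or were at 0 in one of them, and 107 (27.6%) did so between the p53 shRNA libraries. Among the 7SL copies those numbers were 14 of 107 in the control and 50 of 107 after p53 shRNA. By this scaling, the highest CPM was in p53 shRNA 2 for 201 members and in p53 shRNA 1 for 85. It was in control 2 for 85 and in control 1 for 16. For the 7SL copies it was in p53 shRNA 2 for 98 of 107. These counts depend on the scaling: with TMM factors RN7SL674P, counted here under p53 shRNA 2, was highest in control 1 (149 against 142 CPM). Members were chosen on raw totals, in which deeper libraries weigh more, and counts over all features are not given. Nothing is read from this order. Over the 377 members that passed the filter on low counts, log2 CPM correlated between the p53 shRNA libraries with Pearson's r = 0.04 and between the control libraries with r = 0.39. Across the groups, r was 0.43 for control 1 and p53 shRNA 1, 0.52 for control 2 and p53 shRNA 2, 0.31 for control 1 and p53 shRNA 2, and 0.02 for control 2 and p53 shRNA 1. Over all 2780 features that passed, the p53 shRNA libraries correlated with r = 0.75 and the control libraries with r = 0.64. Pairs across the groups ran from 0.51 to 0.69. These are descriptions over features of the same libraries, and the narrow range of totals that defines the members limits how large r can be. A bounded total also sets a high count in one library against a low count in another, most of all between the deeper p53 shRNA libraries.

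**Figure D4:**
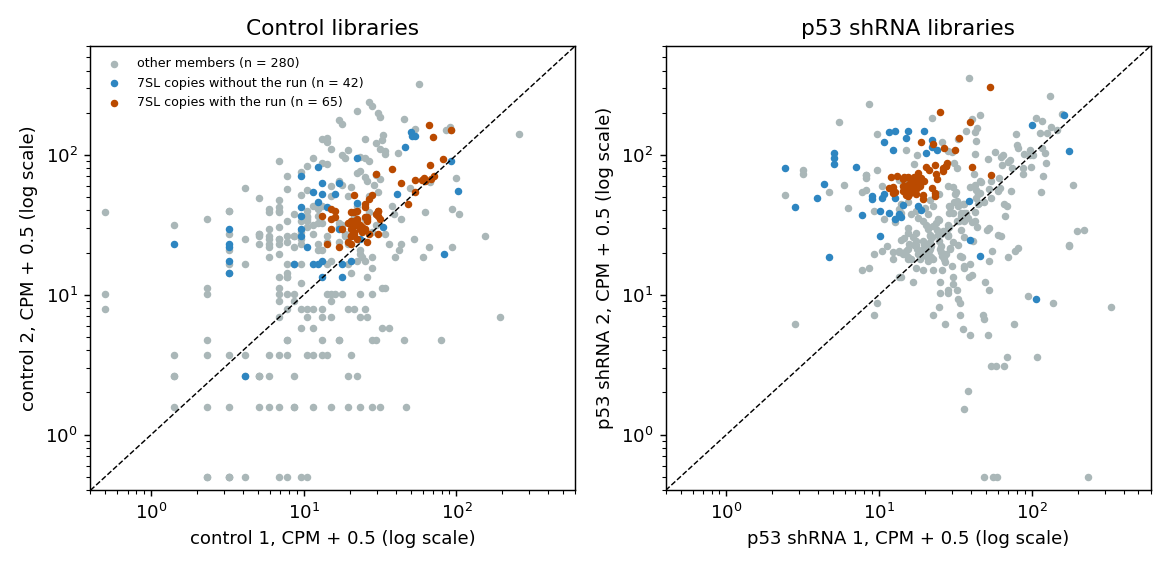
CPM + 0.5 of each member in the libraries of 1 group plotted against each other (both axes log scale; left, control 2 against control 1; right, p53 shRNA 2 against p53 shRNA 1), with the dashed line at equality. The 65 7SL copies with the run form a tight cloud, near the line in the control libraries and above it in the p53 shRNA libraries, while the 280 members that are not 7SL copies scatter to both sides.

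Some members were nearly all from 1 library. A 265-base feature in an intron of COL15A1, the gene of a basement membrane collagen, on the opposite strand (chr9:98954882-98955146), had counts of 1, 1, 611 and 0, so 99.2% of its summed CPM was in p53 shRNA 1. A 232-base feature in an intron of AP005263.1 (chr18:9107299-9107530) had 2, 0, 125 and 0, and a feature on the lincRNA AC061975.6 (chr17:28246454-28248006) had 2, 0, 145 and 0. The HSBP1 feature, on the gene of a heat shock factor binding protein, had 3, 0, 198 and 11, and one on the processed pseudogene AC079866.1 had 2, 3, 178 and 6. An intergenic feature at chr6:100503750-100507622 had 1, 2, 151 and 5. All 6 with the most extreme concentration were thus high in p53 shRNA 1 and at 11 counts or fewer in its partner library. In all, 22 members had over 80% of their summed CPM in 1 library. These 6 and 4 others, on HCN4, IFT20, NCOA6 and Z95114.1, were the 10 members that failed the filter on low counts. All 10 were highest in p53 shRNA 1, and they were not tested. The rule sums raw counts, and p53 shRNA 1 is the deepest library (2611032 counts). A feature with counts in 1 library alone reaches the lower bound most easily there. Nothing is read from the agreement of these members.

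Of the most abundant short members, a pair outside the 7SL copies differed strongly between the libraries of each group. A 283-base feature in an intron of LTBP4, which encodes a latent TGF-beta binding protein, on the opposite strand (chr19:40606767-40607049), had counts of 87, 4, 865 and 15, high in the first library of each group. A 285-base feature on the processed pseudogene AC023232.1 (chr11:47905323-47905607) had 15, 116, 100 and 687, high in the second library of each group. By mean CPM, both are among the 6 most abundant members of at most 300 bases, and the other 4 are RN7SL838P, RN7SL674P, RN7SL665P and RN7SL40P. With TMM factors, RN7SL40P also differed strongly between the p53 shRNA libraries (22.9 and 168 CPM), and RN7SL665P differed less (163 and 87.5 CPM). The features on AL049557.2 (7, 18, 21 and 447) and RPS15P5, a pseudogene of a ribosomal protein gene (10, 11, 24 and 272), were high in p53 shRNA 2 alone. They were named after their values were seen.

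Other members had steady levels. The 6 with the smallest range of log2 CPM lay within 0.53 of their own lowest library. PSMC1P12, a pseudogene of a proteasome ATPase gene (chr1:118614333-118615646), had 45.7 and 56.5 CPM in the control libraries and 50.02 and 40.3 CPM after p53 shRNA, here and below scaled with TMM factors. A feature on the opposite strand of exons of the lincRNA AC105430.1 (chr16:75792378-75848437) had 29.5 and 23.8, then 22.2 and 28.3 CPM. A feature in an intron of KCNIP4, whose protein binds voltage-gated potassium channels (chr4:21452439-21462286), had 22.1 and 23.8, then 30.7 and 27.4 CPM. The groups overlapped in PSMC1P12 and AC105430.1 and did not in KCNIP4, where the log2 change was 0.34 (SE 0.09, unadjusted p = 0.72, adjusted p = 0.94, edgeR).

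Several of the most abundant members contain a gene of another small RNA. The member URS0000D5CB05, on the lincRNA AC108134.3 (chr16:3082966-3087109, minus strand), had counts of 283, 131, 163 and 186. It contains RNU1-22P, a copy of the gene of U1, the small nuclear RNA that recognizes 5′ splice sites (chr16:3086143-3086300). RNU1-22P is 76.2% identical to RNU1-1, and the longest exact match, at bases 119 to 147 of RNU1-1, is printed to show what a short read could share (chr16:3086255-3086283, plus strand).
RNU1-22P: ctgcataatttgtggtagtgggggactgc

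After scaling, this member was at 417 and 130 CPM in the control libraries and at 58.2 and 79.8 CPM after p53 shRNA, without overlap and with a log2 change of -1.99 (SE 0.87, adjusted p = 0.55, edgeR). The intergenic member URS0000D59A89 (chr17:82493119-82494916) contains the tRNA gene TRX-CAT1-8 (chr17:82494721-82494792) and had counts of 68, 36, 344 and 513. URS00008BFDCC (chr2:42810202-42811834) contains TRI-TAT2-1, an isoleucine tRNA gene, and had 114, 35, 409 and 376. URS0000D58C48 (AL662890.1) contains TRA-AGC2-1, an alanine tRNA gene, and had 73, 60, 143 and 39. The other tRNA genes were TRI-TAT1-1 in a member with a total of 114 and TRU-TCA2-1 in one with 140. Across members, 9 had bases of their own on a small RNA gene: 5 tRNA genes, RNU1-22P, RNU6-322P and the 5S rRNA pseudogenes RNA5SP462 and RNA5SP97. Which bases of a member the reads covered is not in a count table, so whether they came from the small gene was not tested.

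Members on protein-coding and lncRNA genes were spread over many loci. A 115444-base member on LEF1, a transcription factor of Wnt signalling (chr4:108082929-108198372), had counts of 37, 95, 229 and 141. One on FIS1, a mitochondrial fission gene (chr7:101250020-101252301), had 21, 21, 104 and 350. HELLPAR, a lncRNA feature of 205012 bases (chr12:102197585-102402596), had 58, 142, 303 and 216. BCYRN1, the gene of the neuronal RNA BC200, lies in a 13458-base member (chr2:47331060-47344517) with 32, 114, 307 and 135, but that member has 0 bases of its own on BCYRN1. On the opposite strand of exons, RABEP2, which encodes an effector of endosomal Rab proteins (chr16:28925213-28926732), had 22, 3, 570 and 55, and ABCA13, a lipid transporter gene (chr7:48452192-48455627), had 33, 187, 212 and 215. FIS1 and RABEP2 each had most of their counts in 1 p53 shRNA library, and not the same one. Strand was not used in the counts, as far as they show, so opposite strand says where the feature was annotated and not where its reads came from.

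The members outside the 7SL and 7SK copies also shared runs with functional RNA genes. Of 96 such members with a readable whole sequence, 16 (16.7%) shared at least 25 bases with a functional small RNA gene, on either strand, against 438 of 5594 other features with a count (7.83%). These members were longer, with a median of 1519 bases against 705 in the features of lower total, and no test was made. The genes were 7SL genes in 13 members, snoRNA genes such as SNORD3B-2 and SNORD91A in 14, BCYRN1 in 8 and a miRNA hairpin in 1. Most of these members matched genes of several kinds, so a match does not by itself mark a member as snoRNA sequence. Whether the runs lie in a repeat that these genes share, such as an Alu, was not tested.

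No member was called between the groups. By the quasi-likelihood test of edgeR over all 2780 features that passed the filter on low counts, 0 features (0.0%) had an adjusted p under 0.05, and the smallest adjusted p of a member was 0.12. At an unadjusted p under 0.05 there were 121 higher and 217 lower features. The members entered through their totals, and libraries of unequal depth weigh unequally in a total, so the counts of members are given as a description. Of the 377 members tested, 15 were higher after p53 shRNA at an unadjusted p under 0.05 (3.98%, against a background of 4.35% of all features) and 6 were lower (1.59%, against 7.81%). The share of members that were higher was near the background. The counts of members shifted when 1 library was left out, and so did those of all features. In those runs the filter passed other numbers of features, and 1 group had a single library. On library totals in place of TMM factors, which raised the median log2 change of all features from 0.05 to 0.49, the counts of members were 31 and 1, against 308 (11.1%) and 170 (6.12%) of all features. DESeq2's Wald test called 1 member of 377, against 29 of all 2780 features (1.04%), and limma voom called 0 of either.

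The groups did not overlap in CPM in 75 members that were higher after p53 shRNA (19.9%, against 22.9% of all features) and in 35 that were lower (9.28%, against 18.6%). The median log2 change of the 377 members was 0.19, with quartiles of -0.37 and 0.91, beside a median of 0.05 over all features. It was 0.07 without control 1, 0.52 without control 2, 0.49 without p53 shRNA 1 and -0.05 without p53 shRNA 2. Over all features the medians of these runs were 0.46, 0.45, -0.06 and 0.12 in the same order. The members thus lay below all features without control 1 and without p53 shRNA 2, and above them in the other runs. By kind, medians were -0.01 for 107 7SL copies, 0.24 for 95 members in exons on the same strand, 0.28 for 34 on the opposite strand, 0.27 for 32 in introns, 0.35 for 58 between genes and 0.56 for 44 on other pseudogenes. The 582 tested lncRNA features of the same totals with several intervals had a median of 0.34, with 27 higher and 8 lower at an unadjusted p under 0.05. Their values come from the same libraries, and the difference from the members was not tested.

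**Figure D5:**
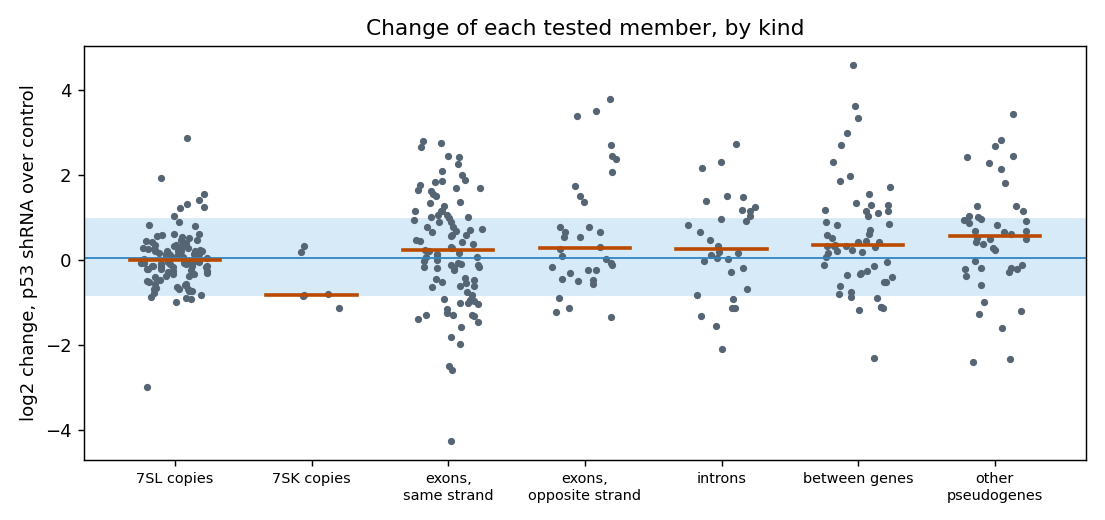
Log2 change of each tested member (vertical axis, p53 shRNA over control, edgeR) by kind (horizontal axis), with medians as orange bars. The blue line and band show the median (0.05) and quartiles of all 2780 features tested. The 7SL copies gather around a median of -0.01, and the largest changes in either direction belong to the other kinds.

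The member with the smallest p was URS000005E76C on the lincRNA AL034548.1 (chr20:267186-268857, plus strand). It had counts of 54 and 54 in the control libraries and 6 and 11 after p53 shRNA, although the latter libraries were deeper. In CPM these are 79.7 and 53.5, then 2.14 and 4.72, or 66.6 ± 18.5 against 3.43 ± 1.82 (SD, n = 2 each). The log2 change was -4.26 (SE 0.50, unadjusted p = 0.0027, adjusted p = 0.12, edgeR), and it lay between -4.64 and -3.41 under every alternative run. DESeq2's Wald test gave it an adjusted p of 0.025. Only 529 of its 1672 bases lie outside other features.

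Among members higher after p53 shRNA, the smallest p belonged to an intergenic feature at chr8:29494252-29494698, with counts of 2 and 1 in the control and 212 and 41 after p53 shRNA (log2 change 4.60, SE 1.12, adjusted p = 0.13, edgeR). HNRNPA1P40, a pseudogene of the RNA-binding protein gene HNRNPA1 (chr11:74354443-74355720), had 1 and 2, then 32 and 66. A feature opposite to exons of PPP1R15B, which encodes a subunit that directs protein phosphatase 1 to the translation factor eIF2-alpha (chr1:204403390-204404742), had 6 and 1, then 108 and 140. In each, both p53 shRNA libraries were above both control libraries, but members were named here only if their groups did not overlap. The choice therefore fixed that order in advance. Their totals, by which members were selected, also came mostly from the p53 shRNA libraries, with 98 of 101 counts in HNRNPA1P40. The intergenic feature also differed between the p53 shRNA libraries, at 75.7 and 17.6 CPM. HNRNPA1P40 was at 1.73 ± 0.36 CPM in the control and 19.9 ± 11.9 CPM after p53 shRNA (SD, n = 2, adjusted p = 0.16, edgeR). The PPP1R15B feature was at 4.92 ± 5.56 and 49.3 ± 15.2 CPM (SD, n = 2, adjusted p = 0.25, edgeR).

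The remaining 5 members of that direction had fewer counts or more spread. A feature opposite to exons of DPYSL5, a gene of the neuronal collapsin response mediator family (chr2:26938626-26940078), had 1 and 3, then 20 and 138. One opposite to exons of the zinc finger gene ZNF549 (chr19:57527061-57527731) had 3 and 0, then 93 and 29. RN7SL575P (chr2:95003547-95003843) had 4 and 2, then 101 and 47, and lacks the 18-base run. Intergenic features at chr19:279495-280170 and chr10:3886324-3887954 had 2 and 4, then 24 and 150, and 4 and 2, then 244 and 18. Their adjusted p-values in edgeR ran from 0.22 to 0.27.

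Of the 35 members lower after p53 shRNA without overlap between groups, 7 others were named for a small p. In several of these the control libraries differed widely. RN7SL507P (chr17:44290858-44291151) had 90 and 18 in the control and 11 and 35 after p53 shRNA, with a log2 change of -2.98 (SE 1.64, adjusted p = 0.37, edgeR). LINC01023 (chr5:108724187-108728275) had 8 and 66, then 23 and 13, and AC105219.3 (chr8:143765398-143771863) had 7 and 84, then 24 and 16. An intergenic feature at chr12:90135060-90143767 had 36 and 129, then 50 and 44. The larger control count was in control 1 for RN7SL507P and in control 2 for the other 3. A feature in an intron of KCNQ3, a voltage-gated potassium channel gene (chr8:132190041-132195793), had 25 and 71, then 42 and 23, also with the larger count in control 2. The control libraries were closer to each other in a feature opposite to the processed pseudogene AC084878.1 (chr12:46003859-46028560), with 41 and 40, then 19 and 28 (log2 change -2.40, SE 0.47, adjusted p = 0.34, edgeR), and in one on AC093582.1 (chr7:65840055-65842396), with 47 and 32, then 21 and 29.

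Lists of genes tied to p53, colon cancer or vesicles bore few features that could have been members. Of 16 p53-linked lncRNA genes, 24 colorectal cancer lncRNA genes, 16 nuclear and widely expressed lncRNA genes, 13 imprinted lncRNA genes, 26 genes of the p53 pathway and 16 vesicle protein genes, none carried a member. Only 4, 10, 4, 7, 7 and 11 of these genes had any lncRNA feature with 1 interval and a count, and 387 of 13409 such features are members, so nothing is read from their absence. Of 31 host genes of snoRNAs and miRNAs, 1 did: a member on DLEU2, host of the miR-15a and miR-16 hairpins (chr13:50070970-50081506), with 6 and 27, then 78 and 74 counts. Its groups did not overlap, with a log2 change of 0.72 (SE 0.74, adjusted p = 0.82, edgeR). Of 11 hairpins that mark intestinal epithelium, 4 had a count (MIR200C, MIR141, MIR375 and MIR7-1), with sums of 11, 17, 25 and 66. Of 9 hairpins of stroma and muscle, 6 of neural cells and 1 of liver, none had a count, and of 7 of blood and immune cells MIR486-1 had 2 counts, in control 2. Hairpins are partly covered by other features, and a hairpin without bases of its own could not receive a count. Such bases remained in 6 of the 11 epithelial hairpins, 3 of 9 of stroma and muscle, 3 of 6 neural, 2 of 7 of blood and 0 of 1 of liver.

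At the edges of the selection the features were of the same kinds. The lowest members, on an intron of ITPKB and on the pseudogene AL450338.1, had totals of 100, and the nearest features below, one between genes and one on SLC13A5, had totals of 99. The highest members were the LTBP4 feature at 971 and RN7SL230P at 979. The nearest features above were on the pseudogene AC104440.1 at 1033 and on MIR17HG, the host gene of the miR-17 cluster, at 1064.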

How the data were processed

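Small RNA libraries of vesicle RNA from 4 HT29 samples (2 control, 2 p53 shRNA, grouped by the labels) were analysed. The authors deposited whole-number read counts per RNAcentral feature, not normalized, and an annotation. The GRCh38 build and the tools BWA 0.7.17, Subread 1.6.3 and bcl2fastq 2.19 are named, per the submitters' processing notes. How reads that fit several places or features were counted was not given in the sources used here. Features with no base outside other features had no counts. Library totals were 938754 to 2611032 counts. No count column belonged to another sample.

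Features were placed on GENCODE 29 (GRCh38, the build of the counts) with bedtools 2.31.1, and on RefSeq tRNA genes of the same build. A copy of 7SL or 7SK RNA is a feature with at least 50% of its length on such a gene. Sequences come from GENCODE transcripts, so members not inside 1 exon were not searched. Groups were compared in edgeR 4.0.16 (glmQLFit and glmQLFTest, its quasi-likelihood test) with TMM factors (0.637, 1.12, 1.13 and 1.25), edgeR's filter on low counts and Benjamini-Hochberg adjustment. The SE of a change comes from both groups' spread in log2 CPM of that feature (prior count 2). The p-value of edgeR also draws on the spread of all features tested, so a small SE can stand beside a large p. The fit was tested on simulated data. DESeq2 1.42.0 and limma 3.58.1 in R 4.3.3, other scalings and filters, a replicate block and each library left out were alternatives.

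The members and lists were chosen with earlier results of these data known. Named members follow a rule: the 10 most abundant, up to 8 per direction with the smallest p among those without overlap between groups, the 6 most concentrated in 1 library, the 6 steadiest, the 6 most abundant of at most 300 bases, those nearest each bound of the totals, and up to 3 per gene list. Members named for their kind (the most abundant of each, the small RNA genes, MTCO3P16 and the 7SK copies) and the run windows were chosen after their values were seen. A check of the targeted gene and some shared sequences are not reported here.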

Additional observations from a re-analysis of the deposited data

How the results depend on the processing

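The number of members called at an adjusted p of 0.05 was 0 under all alternatives run but 2: 1 with DESeq2's Wald test (AL034548.1), which called 29 of all 2780 features, and 3 with the replicate block, which called 103 of all features. The labels do not say that a number marks a shared batch, and with 2 pairs the correlation of same-numbered deviations (0.395 over all features, 0.419 over members) does not show that the numbers pair the samples. With the replicate block, 23 members were higher and 3 lower at an unadjusted p under 0.05, against 15 and 6 without it (154 and 218 of all 2780 features with the block, 121 and 217 without). For members these counts were 31 and 1 on library totals (308 and 170 of all features) and 58 and 1 with no filter on low counts (2027 and 677 of 46090 features), and 24 members were higher with a mean CPM of at least 10. They ranged from 5 to 36 higher and from 0 to 10 lower when 1 library was left out, and were 5 and 0 among the 199 members with a total of at least 200. Without 7SL copies in the fit, chosen after seeing the data, the counts of members were 21 and 4 (185 and 206 of 2659 features), and 21 members were lower without overlap. Members without overlap between groups numbered 155 higher and 8 lower with no filter and 11 lower on library totals. Members without overlap between groups ranged from 127 to 194 higher and from 40 to 125 lower with 1 library left out. There 1 group has a single library, which need only lie outside the range of the other group, so a lack of overlap is met more easily. In the fits of those runs, that library is assumed to vary like the other group. Shares of all features without overlap are not given for these settings, so nothing is read from these counts. The median log2 change of the 7SL copies ranged from -1.03 to 0.70 with 1 library left out, and that of members outside 7SL and 7SK copies was 1.21 with no filter. Of counts outside ribosomal RNA genes, the members' share was 2.76% in the control and 4.03% after p53 shRNA. All 189 alternative log2 changes of the 16 members named for a small p kept their sign. These members were chosen for groups that do not overlap in the same libraries, which largely fixed the sign in advance. Of the 189 changes, 4 were called: with the replicate block, 4.41 (chr8:29494252-29494698), 3.67 (ZNF549) and -4.29 (AL034548.1), and -4.30 (AL034548.1) with DESeq2's Wald test. Choosing the members by summed CPM at the same ranks kept 364 of the 387. The cause of these shifts was not tested. Depth limits the low values most in control 2, the smallest library (938754 counts).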
